A study of Mus musculus with 4 samples.

Results

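Some m6A peaks do not lie in 1 uninterrupted stretch of the genome but are listed as several blocks with gaps between them. They are described here for mouse embryonic stem cells. Of 4206 peaks in the deposited list, 405 were chosen by their deposited block number, 2 or more, and are called split here, or 9.63% (95% Wilson interval 8.77 to 10.6), and the other 3801 have 1 block. The block number is therefore a description and was not tested. Next to the 3801 peaks of 1 block stand 333 peaks of 2 blocks, 65 of 3, 5 of 4 and 2 of 5.

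The cells were of the CCE line, a mouse embryonic stem cell line, grown without feeder cells with leukemia inhibitory factor, a cytokine that keeps such cells undifferentiated. They were infected to express a control short hairpin RNA or, in the knockdown arm, a hairpin that targets Zfp217, which codes for a zinc finger protein, and both arms went through 5 days of puromycin selection (1 microgram per mL) that began 4 days after infection. Total RNA was cut to about 100 nt, and an input and an m6A pulldown library were made from each arm, so there were 4 groups of 1 library each: control input, control pulldown, knockdown input and knockdown pulldown. Zfp217 appears before IP in the titles of both pulldown libraries, but the antibody given for them is the one against m6A. The 1 peak list of the series names none of these libraries. Its title calls the peaks differential, but the analysed columns give no direction, and no difference between arms could be computed from them.

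N6-methyladenosine (m6A) is an internal mark of messenger RNA, set by a complex around the methyltransferase Mettl3 and read by proteins of the YTH family. In mammalian transcripts it is known to be frequent around stop codons and in long exons. Splicing removes introns from the RNA. A stretch of mature RNA that crosses an exon junction thus corresponds to separate blocks of the genome, with the intron as the gap. The RNA bases of a split peak are therefore the sum of its blocks, which is called its summed length here, while its genomic span also takes in the gaps.

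The gaps and inner blocks had the lengths of annotated introns and exons. A peak of 3 or more blocks holds at least 1 inner block with a gap on either side, and there were 81 such inner blocks. For 77 of them, or 95.1% (88.0 to 98.1), the lengths of the gap before, the block and the gap after were all identical to those of 1 annotated exon and its flanking introns on the same chromosome and strand in GENCODE vM21. On the opposite strand none of the 81 had such a counterpart, so the listed strand went with that of the annotated transcripts. The library kit does not mark strand, and how strands were assigned is not stated. A strand taken from an annotation would match in this way by construction. This look-up compared lengths only, because that annotation is on GRCm38 and the list is on mm9, and no position was carried from one to the other. Of 40 gaps over 10000 bp, 36 had the exact length of an annotated intron on their chromosome and strand. Over all sizes this was so for 473 of 486 gaps. Short lengths recur among the introns of a chromosome, so a match of a short gap by length alone says little. For large gaps, how often an unrelated intron would have the same length was not measured. By length, the label of exon junctions thus held for nearly all inner blocks and most large gaps. How the blocks were drawn is not stated. Blocks drawn on annotated transcripts would match by construction, so the match cannot show that sequenced fragments crossed junctions. Neither of the only gaps under 50 bp, of 21 and 38 bp, had an annotated intron of its length on its chromosome and strand.

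Split peaks had more sequence behind the gap than before it. Read in the direction of transcription by the listed strand, the first block had a median of 55 nt (95% interval of the median 41 to 67) and the last block one of 162 nt (126 to 204). The quartiles were 20 and 149 nt for first blocks and 47 and 460 nt for last blocks. A first block under 30 nt was found in 144 peaks, or 35.6% (31.0 to 40.3), and a last block under 30 nt in 71, or 17.5% (14.1 to 21.5). At the other end, 147 last blocks and 54 first blocks reached 300 nt. First blocks ranged from 1 to 3024 nt and last blocks from 2 to 1522 nt, so the ranges overlapped widely. A first block of only 1 nt was listed for 8 peaks. These intervals treat peaks as independent draws and hold no error between cultures, because each group had 1 library.

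**Figure D1:**
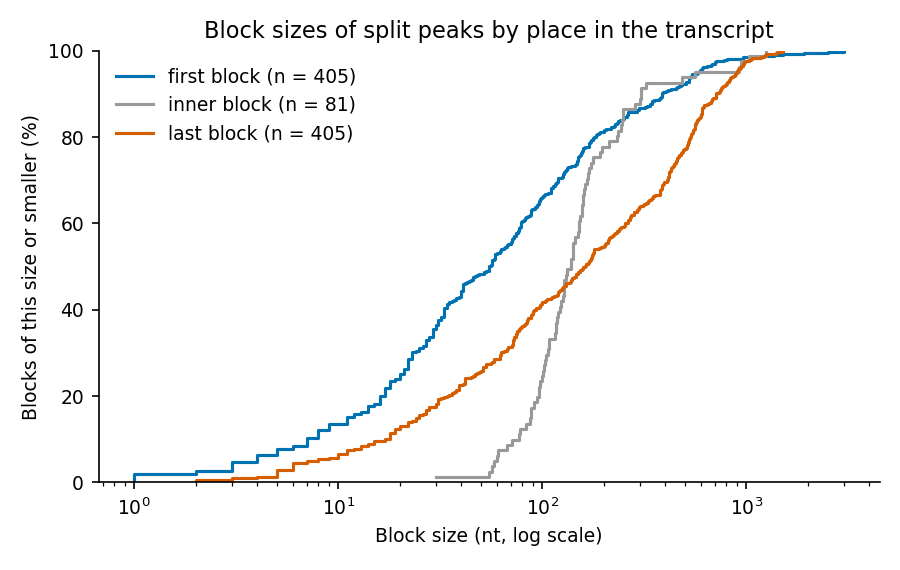
Share of blocks at or below each size, for the first, inner and last blocks of the 405 split peaks in transcript order; the x axis is block size in nt on a log scale and the y axis is percent of blocks. The curve of first blocks lies to the left of that of last blocks over most of the range, with medians of 55 and 162 nt, and inner blocks rise steeply around their median of 138 nt.

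Inner blocks were much more alike in size than outer ones. They had a median of 138 nt (120 to 154), quartiles of 101 and 178 nt, and extremes of 30 and 1245 nt. Inner exons of GENCODE vM21, each counted once, had a median of 125 nt and quartiles of 89 and 171 nt. An inner block takes up a whole exon where its edges are junctions, while an outer block ends wherever the peak ends, so the sizes of inner and outer blocks are set in different ways. Of the 81 inner blocks, 30 were a multiple of 3 nt long, or 37.0% (27.3 to 47.9), where evenly spread lengths would give 33.3%. Most of them, 52, lay between 100 and 299 nt.

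The balance across the gap was clearest in the 333 peaks of 2 blocks. The last block was the longer one in 219 of them, or 65.8% (60.5 to 70.7), and the first in 114. The share of summed length on the 5′ side had a median of 20.5% (18.3 to 31.1), with quartiles of 5.69% and 68.5%. In classes of 10 points on this scale, the 2 at the ends held the most peaks, and the next largest, from 10% to under 20%, held 46. In 117 the first block held under 10% of the length, in 47 it held 90% or more, and in 24 the shorter block held at least 40%. The shorter block had a median of 30 nt and the longer one a median of 311 nt. Both blocks reached 30 nt in 167 peaks and 100 nt in 51, or 15.3% (11.8 to 19.6). The shorter block held under 10% of the length in 164 peaks, or 49.2% (43.9 to 54.6), and in 117 of these it was the first block.

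**Figure D2:**
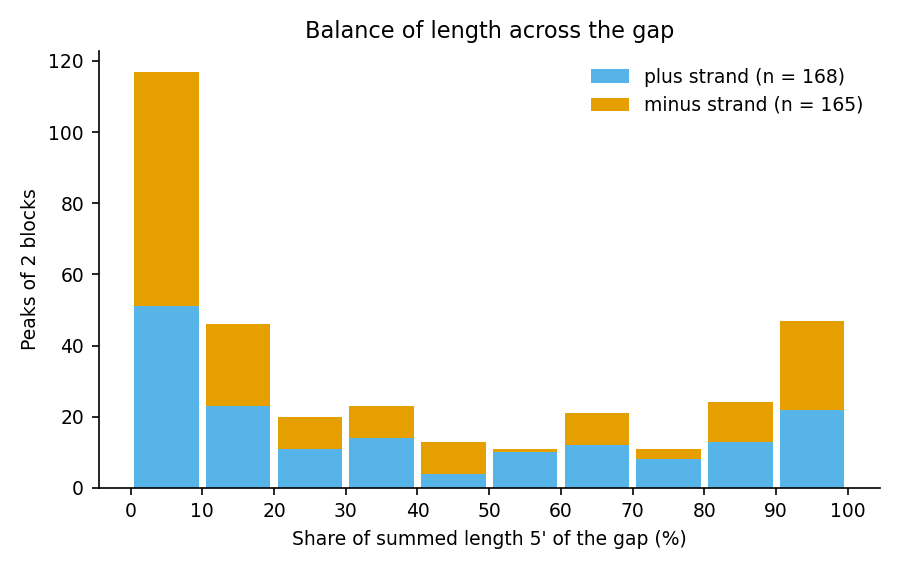
Number of peaks of 2 blocks (y axis) by the percent of summed length that lies 5′ of the gap (x axis, classes of 10 points), stacked by listed strand. The class under 10% holds 117 peaks and the class from 90% holds 47, with few peaks in the middle.

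The same order was seen on both strands. On the plus strand the last block was the longer in 103 of 168 peaks of 2 blocks, or 61.3% (53.8 to 68.3), and on the minus strand in 116 of 165, or 70.3% (62.9 to 76.7). On the genome these are opposite sides, the right block on the plus strand and the left block on the minus strand. The median 5′ share was 28.2% on the plus strand and 18.9% on the minus strand. The intervals of the 2 strands overlap, and their difference was not tested.

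The longer block was last in most peaks of every length class, with the highest share among long peaks. Among peaks of 2 blocks with a summed length up to 120 nt, the last block was the longer in 32 of 54, or 59.3% (46.0 to 71.3). From there to 210 nt it was so in 37 of 64, or 57.8% (45.6 to 69.1). The intervals of both these classes took in an even split. Up to 420 nt the last block was the longer in 46 of 71, or 64.8% (53.2 to 74.9). Over 420 nt it was so in 104 of 144, or 72.2% (64.4 to 78.9). Median first and last blocks were 29.5 and 42 nt in the shortest class and 91.5 and 519 nt in the longest. The median 5′ share was 40% in the shortest class and 13.8% in the longest. By gap length, the last block was the longer in 57 of 73 peaks with a gap under 500 bp, or 78.1% (67.3 to 86.0), and in 34 of 58 with a gap of 5000 bp or more, or 58.6% (45.8 to 70.4). Between them stood 31 of 52 for gaps of 500 to 999 bp, or 59.6% (46.1 to 71.8), and 97 of 150 for 1000 to 4999 bp, or 64.7% (56.7 to 71.9), so the share did not fall steadily with gap length and was highest in the shortest class. The differences between classes were not tested.

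The 5 longest split peaks ran against this order, since 4 of them had nearly all their length in the first block. The longest, in mm9 at chr10:5987939-5991625 (minus strand), had a first block of 3024 nt and a last one of 125 nt. The next, at chr17:88383805-88387781 (plus strand), had 2517 and 256 nt. Blocks of 1912 and 31 nt made up the peak at chr1:135028281-135033270 (plus strand), and blocks of 1514 and 159 nt that at chr3:16103911-16114113 (plus strand). The exception was at chr18:46664648-46684091 (minus strand), with 336 nt before the gap and 1396 nt behind it. These 5 peaks all have 2 blocks.

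At the extremes of balance, the 5 most uneven peaks of 2 blocks all had the sliver in front. On the plus strand, first blocks of 1 nt stood before 568 nt at chr6:33871537-33922481, before 419 nt at chr7:30884741-30889667, before 388 nt at chr17:87394439-87396632, and before 299 nt at chr16:57150055-57152994. The last of the 5, at chr10:77633894-77636128 (minus strand), had 3 nt before 986 nt. All but 1 to 3 nt of these peaks therefore lay behind the gap.

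The most even peaks ranged from 61 to 601 nt in summed length. The evenest, at chr4:136099135-136101454 (plus strand), had 299 nt and 302 nt around a gap of 1719 bp. At chr4:3762349-3762718 (minus strand), blocks of 88 and 90 nt stood around 192 bp. Blocks of 74 and 77 nt lay around 2984 bp at chr1:133920137-133923271 (minus strand). The other 2 were short, with 45 and 46 nt at chr10:86161138-86161373 (minus strand), and 30 and 31 nt at chr14:27446431-27446835 (plus strand).

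Peaks of 3 or more blocks showed the same order of outer blocks. Of these 72 peaks, 47 had a last block longer than the first, or 65.3% (53.8 to 75.2). On the plus strand this was so in 31 of 44, or 70.5% (55.8 to 81.8). On the minus strand it was so in 16 of 28, or 57.1% (39.1 to 73.5), an interval that takes in an even split. The first block had a median of 40 nt and the last one of 107 nt. The longest block was the last in 33 peaks, an inner one in 29 and the first in 10. Added up over these peaks, first blocks held 15.2% of the length, inner blocks 39.0% and last blocks 45.8%. In the peaks of 2 blocks, first blocks held 35.8% of the length and last blocks 64.2%.

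The 7 peaks of 4 or more blocks crossed up to 4 gaps, and 3 of them ended in a last block longer than the first. The peak of 5 blocks at chr8:88062883-88072495 (minus strand) had blocks of 33, 197, 145, 128 and 424 nt around gaps of 1854, 6060, 130 and 642 bp. The other one of 5 blocks, at chr10:116493174-116497715 (minus strand), had 12, 101, 128, 104 and 42 nt, so both of its ends were shorter than each of its inner blocks. The peak at chr3:89585007-89586693 (plus strand) began with 11 nt, passed through 96 and 67 nt and ended with 515 nt, across gaps of 272, 307 and 419 bp.

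The other 4 ended in a last block shorter than the first. In the peak at chr6:54996414-55002187 (plus strand), blocks of 96, 103, 142 and 18 nt were split by gaps of 1551, 2150 and 1714 bp. The peak at chr7:133706195-133707266 (minus strand) had 126, 55, 107 and 10 nt, with gaps of 329, 132 and 313 bp. The largest block of that at chr4:126700153-126703172 (plus strand) was inner, in the order 96, 302, 96 and 74 nt. So was that at chr11:53086354-53097071 (minus strand), with 41, 245, 77 and 27 nt and gaps of up to 5248 bp.

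**Figure D3:**
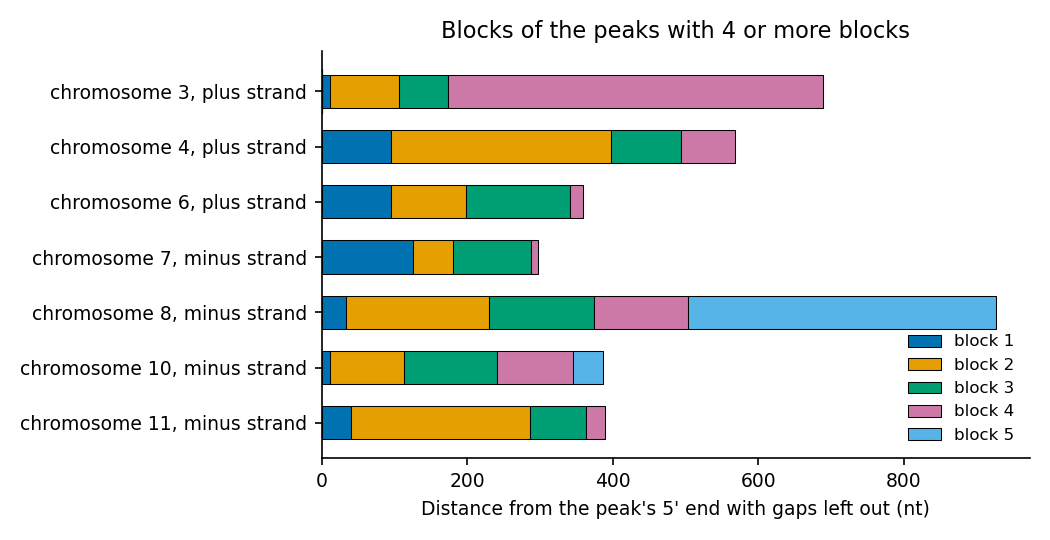
Blocks of the 7 peaks with 4 or more blocks, drawn to scale from the 5′ end with gaps left out (x axis, nt), 1 bar per peak and 1 colour per block. The peaks on chromosomes 3 and 8 end in blocks of 515 and 424 nt, while the other 5 end in blocks of at most 74 nt.

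Most split peaks had a largest gap that was longer than their own summed length. The 486 gaps had a median of 1478 bp (1164 to 1680), and 205 of them, or 42.2%, measured 1000 to 4999 bp. In GENCODE vM21 introns, each counted once, had a median of 1485 bp and quartiles of 515 and 4143 bp, beside 507 and 3161 bp for the gaps. In 342 peaks, or 84.4% (80.6 to 87.6), the largest gap was longer than the summed length. The span on the genome was a median of 5.7 times the summed length. In the 65 peaks of 3 blocks neither gap was regularly the longer one, since the first exceeded the second in 34, or 52.3% (40.4 to 64.0).

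**Figure D4:**
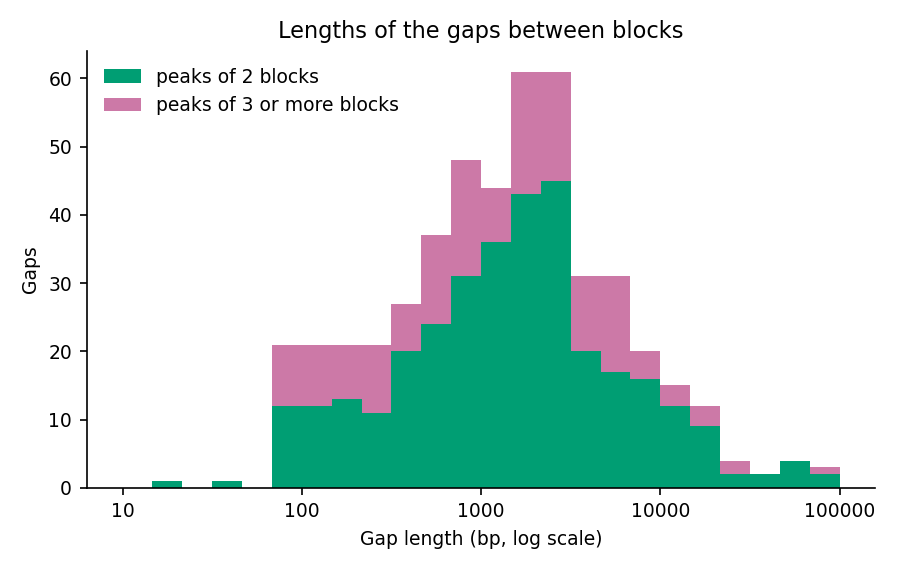
Number of gaps (y axis) by length in bp (x axis, log scale), stacked for peaks of 2 blocks and of 3 or more. The gaps center on a median of 1478 bp, and 2 gaps of 21 and 38 bp stand apart at the left.

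The largest gap, 90507 bp, lay between blocks of 525 and 15 nt at chr19:46837359-46928405 (plus strand). A gap of 88186 bp followed at chr8:93837424-93933696 (plus strand), where the 3 blocks measured 96, 78 and 575 nt. The third, 79136 bp, joined 18 and 73 nt at chr8:83324222-83403448 (minus strand). Gaps of 56353 bp at chr11:22799788-22856439 (minus strand) and of 50824 bp at chr10:3134724-3185758 (plus strand) completed the 5. Of these 5 peaks, 3 had a last block longer than the first.

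At the short end, 2 gaps were under 50 bp and the rest were 71 bp or more. The gap of 21 bp lay between 107 and 169 nt at chr14:51427122-51427418 (plus strand). The gap of 38 bp lay between 89 and 512 nt at chr6:4705200-4705838 (plus strand). The next shortest, 71 bp, belonged to a peak of 3 blocks at chr17:25964095-25964396 (plus strand), with blocks of 4, 122 and 24 nt and another gap of 81 bp. A gap of 72 bp at chr1:157888022-157899301 (plus strand) stood in the same peak as one of 10159 bp. The fifth, 77 bp, lay at chr5:130297450-130297967 (plus strand).

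Almost every gap was crossed by 1 peak only. The exception was a gap of 2727 bp on the plus strand of chromosome 11, shared by a peak from 95611198 to 95614194 with blocks of 264 and 6 nt and a peak from 95611086 to 95614199 with blocks of 376 and 11 nt. The shorter of this pair lies within the longer. The 486 gaps thus held 485 distinct positions.

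No other peak of the list lay wholly inside a gap, on either strand. With 486 gaps, a count of 0 allows a share of up to 0.617%, taken as 3 counts of the total, or 0.784% by the upper Wilson limit. These limits treat gaps as independent draws. How peaks were placed is not stated, and a list confined to annotated exons could hardly hold a peak wholly inside an intron. Whether the list was so confined was not tested. The blocks of other peaks reached into a gap in 8 cases, 2 on the strand of the split peak and 6 on the opposite strand. The largest such stretch by bases was 716 bp of a peak of 1440 nt at chr8:26877379-26878818 (minus strand), within a gap of 12903 bp on the plus strand. On one strand, 419 bp of a peak of 601 nt reached into a gap of 4770 bp of the peak at chr19:12839875-12844824.

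The share of split peaks was highest among long peaks. It was 5.17% (3.99 to 6.67) up to 120 nt, 6.82% (5.44 to 8.52) from there to 210 nt, 9.01% (7.44 to 10.9) up to 420 nt and 17.8% (15.6 to 20.2) above. These limits are the quartiles of summed length over all 4206 peaks. The interval of the longest class overlaps none of the others. Split peaks held 14.4% of the 1324 kb of summed length of the list, beside their 9.63% of its peaks.

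Among split peaks, a smaller share had another peak close by on the genome than among peaks of 1 block. A peak of the same strand with a block within 1000 bp was found for 92 of 405 split peaks, or 22.7% (18.9 to 27.0), and for 1441 of 3801 peaks of 1 block, or 37.9% (36.4 to 39.5). In each of the 4 length classes the split peaks had the lower share. No test of the difference was run, since peaks are not replicates. Up to 120 nt the shares were 20% (11.6 to 32.4) and 43.6% (40.6 to 46.7), and over 420 nt they were 24.7% (19.0 to 31.5) and 32.2% (29.1 to 35.4), where the intervals overlap. Distances were taken on the genome, so a neighbour across an intron counts as far away, and the part of this in the difference was not tested.

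**Figure D5:**
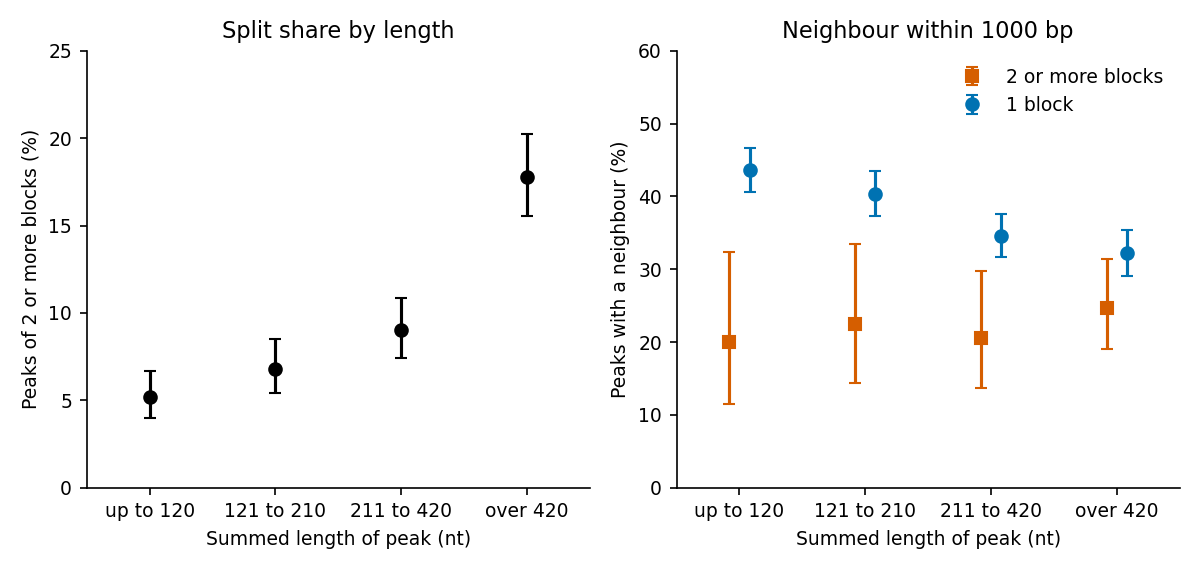
Left, percent of peaks with 2 or more blocks by summed length in nt; right, percent of peaks with a same-strand neighbour within 1000 bp, for split peaks (squares) and peaks of 1 block (circles); bars are 95% Wilson intervals. The split share is 17.8% in the longest class against 5.17% in the shortest, and the squares lie below the circles in all 4 classes.

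Some split peaks had another split peak of their strand close by. Within 1000 bp this was so for 26 of 405, or 6.42% (4.42 to 9.24). A neighbour of either kind was found for 92 of the 405, so 26 of these 92 had a split one. Split peaks made up 9.63% of the whole list, but that share has another base and cannot be set against the 6.42%. How many peaks of 1 block had a split neighbour was not counted. The 26 peaks formed 13 pairs, and in 6 of these pairs the 2 peaks stood 58 or 59 bp apart. On the plus strand of chromosome 4, a peak of 506 nt ended at 98403345 and one of 1456 nt began at 98403405. On the minus strand of chromosome 13, a peak of 510 nt ended at 46784440 and one of 660 nt began at 46784500. Among split peaks with a neighbour within 1000 bp, the nearest was 58 to 60 bp away in 30 of 92, or 32.6% (23.9 to 42.7), and among peaks of 1 block in 320 of 1441, or 22.2% (20.1 to 24.4).

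In split peaks, steps of 30 nt ran through the joined blocks and not through each block taken separately. The summed length was within 1 nt of a multiple of 30 in 307 of the 405 split peaks, or 75.8% (71.4 to 79.7). First blocks were so in 11.6% (8.84 to 15.1), inner blocks in 7.41% (3.44 to 15.2) and last blocks in 11.4% (8.62 to 14.8), where lengths spread evenly would give 10%. Peaks of 3 or more blocks had 75% (63.9 to 83.6) of summed lengths on a step, and peaks of 1 block had 87.1% (86.0 to 88.1). The steps thus went with the length of the joined blocks, and neither with that of any block position alone nor with the genomic span, of which 10.6% (7.98 to 14.0) lay on a step.

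Split peaks were spread over 20 of the 21 chromosomes with peaks, the exception being the mitochondrial genome, with 5 peaks, whose transcripts have no introns. Shares ran from 7.64% on chromosome 5 to 13.9% (10.3 to 18.4) on chromosome 1. Chromosome 1 was the only one of the 21 whose interval left out the 9.63% of the whole list, with no correction for the number looked at. By strand, 9.82% of plus-strand peaks (8.63 to 11.1) and 9.43% of minus-strand peaks (8.24 to 10.8) were split. The list passes through the chromosomes in turn in 2 runs, and what they stand for is unknown here. The first run held 399 split peaks among 4118 and the second 6 among 88.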

How the data were processed

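The submitters' processing notes name CASAVA 1.4, Bowtie2, MACS 1.4 and mm9, without saying which step each served; how the authors compared libraries and at what threshold is not stated. Every row of the list carries a deposited score of 900. Depth per library is unknown. The library kit does not mark strand, and no source says how a strand was assigned to each peak.

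Gaps are the next block's start minus the previous block's end. Blocks were ordered by listed strand. Positions are in mm9, counted from 1, and a neighbour is a peak with a block within 1000 bp on the same strand. Overlap means at least 1 bp. Shares have 95% Wilson intervals and medians 95% binomial order-statistic intervals. No test was run, since peaks are not replicates. Intron and exon lengths came from GENCODE vM21 (GRCm38), a look-up chosen after seeing the data; without an annotation of the list's build, no gene was named and no sequence read.

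Peaks were named by position: those of 4 or more blocks, the 5 longest, the 5 largest and 5 smallest gaps, the 5 most even and 5 most uneven of 2 blocks, and shared gaps. Peaks named for neighbours or for reaching into a gap were chosen after their values were seen. Members and lists were chosen with earlier results of these data known. Python 3.11.15, numpy 2.4.6, scipy 1.17.1 and matplotlib 3.10.9 were used. Block order, gaps and neighbours were tested on 2000 simulated peaks, all recovered.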

Additional observations from a re-analysis of the deposited data

How the results depend on the processing

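Alternatives left out chromosomes X, Y and M, the second run, overlapping peaks, peaks over 1000 nt or split peaks with a block under 10 nt, or joined gaps under 50 bp. Of 58 values, 53 stayed within the interval of the reported value, or within 1.5 times a count. Several settings touched few of the 405 split peaks: 6 on chromosome X, 6 in the second run and 13 that overlapped another peak. Only 2 gaps were under 50 bp. Values under these settings could hardly leave the interval, so the count of 53 says little about them. Without blocks under 10 nt, the split share was 7.92% and the median share of the shorter block, 10.8% in all peaks of 2 blocks, was 15.2%; both follow from removing those peaks. Exact multiples of 30 made up 35.8% of summed lengths and those within 2 nt 83.2%, by the width of the tolerance. Split peaks with a neighbour numbered 58 within 300 bp. The strand-wise values and the share with the longer block last were added after seeing the data; the latter ran from 61.3% to 70.3%. Introns of the list's own build, genes and gene lists were not analysed here. No paired analysis was possible because no group has a second library. Without read depths, limits set by depth were not assessed.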
